A study of Mus musculus with 10 samples.

Results

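Haploid epiblast stem cells (EpiSC) whose label reads p53 knockout (p53-KO) were compared with wild-type diploid EpiSC, using 4 of the 10 mouse RNA sequencing libraries of the series. The haploid side held the lines haEpi1 and haEpi5, with 1 library each. The wild-type diploid side held 1 male library and 1 taken as female from a title that ends in fema. All libraries carry the strain label 129SV. Libraries were chosen by their cell type and genotype labels, and genes were then sorted by whether both haploid values lay outside the range of the wild-type values. Ploidy and the p53 label change together between these sides, so their shares in any difference cannot be told apart. A single diploid p53-KO EpiSC library is given beside the 4 libraries, and a library of mouse embryonic fibroblasts (MEF) serves as the reference for fibroblast genes. The alleles targeted in Trp53 are not named in the labels.

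EpiSC are pluripotent cells derived from the epiblast of the embryo after implantation, and they are grown with Activin and FGF. Activin and the related ligand Nodal bind activin receptors, which phosphorylate Smad2 and Smad3. Lefty1 and Lefty2 are secreted inhibitors of Nodal that are themselves induced by Nodal signalling, which closes a feedback loop. Mammalian haploid stem cells hold a single copy of each chromosome and tend to become diploid in culture, and loss of p53 is known to favour the upkeep of the haploid state. RNA sequencing scaled to library size gives relative levels and does not measure ploidy or the RNA content of a cell.

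Total counts lay between 15905966 and 18814003 in the 5 EpiSC libraries. Levels are given as CPM, counts scaled to library size with TMM factors, unless stated otherwise. The libraries did not pair off by genotype: the chi-square per degree of freedom over genes was 38.89 between haEpi1 and the female wild-type library, the lowest of the 6 pairs. It was 82.34 between both haploid libraries and 78.04 between both wild-type libraries. Each side joins libraries that differ in line or in sex, so a p-value here reflects the spread between such libraries, part of which may be technical. Counts of mitochondrial genes made up 3.83% of haEpi5 and 1.30% to 1.46% of the other 3 libraries.

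Trp53, the gene named in the label, lies on chromosome 11 at 69580359 to 69591873 on the plus strand (mm10). The haploid lines held 52.0 CPM (haEpi1) and 64.2 CPM (haEpi5), against 38.3 CPM in the female and 205 CPM in the male wild-type library. The level was 2.25 CPM in the diploid p53-KO library. Both haploid values lay between the wild-type values, so the Trp53 transcript did not separate the labelled genotypes. Cdkn1a, the p53-induced inhibitor of the cell cycle, was at 73.5 and 108 CPM in haEpi1 and haEpi5 and at 73.3 and 168 CPM in the female and male libraries. Mdm2, the ubiquitin ligase that degrades p53 and is itself a p53 target, stood at 151 and 191 CPM against 130 and 207 CPM. In the diploid p53-KO library Cdkn1a was at 4.51 CPM and Mdm2 at 81.9 CPM, below both haploid and both wild-type libraries. For all 3 genes both haploid libraries lay within the wild-type range, and the diploid p53-KO library lay below it. On the scale of all 10 libraries, Trp53, Cdkn1a and Mdm2 were at 32.92, 12.02 and 90.78 CPM in haploid p53-KO epiblast-like cells. The wild-type haploid epiblast-like cells held 356.1, 116.2 and 211.1 CPM. These transcripts thus did not set haEpi1 and haEpi5 apart from wild type, unlike the other libraries with the p53-KO label. Whether p53 is lost in haEpi1 and haEpi5 was not tested, and each genotype is given only as its label states it.

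The Y-linked genes and Xist, which silences an X chromosome in female cells, bear on the sex of each library. Ddx3y was at 8.74 and 5.21 CPM in the haploid libraries and 5.95 CPM in the female library, and at 97.3 CPM in the male library. Eif2s3y, Kdm5d and Uty were likewise far higher in the male library. Kdm5d and Uty stood at 49.7 and 40.6 CPM there and at most at 2.99 and 1.97 CPM in the other 3. Xist was at 40.3, 175, 47.9 and 10.5 CPM in haEpi1, haEpi5, the female and the male library. On the Y chromosome the contrast of genotypes is thus a contrast of 1 male library with 3 others. The diploid p53-KO library stood with the male library, at 121 CPM of Ddx3y, 100 CPM of Eif2s3y, 57.1 CPM of Kdm5d and 45.7 CPM of Uty. It held 2.51 CPM of Xist, so it differed from the haploid and the female libraries in these genes. On the scale of all 10 libraries, MEF held 754 CPM of Xist together with 69.4 CPM of Ddx3y. The part of fibroblast RNA in the EpiSC levels of these genes was not tested.

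The EpiSC markers Lefty1, Lefty2 and Dnmt3b were present in all 4 libraries, while the MEF library held 0.510 CPM of Lefty1, 0 CPM of Lefty2 and 5.93 CPM of Dnmt3b. On the scale of all 10 libraries, Lefty2 was at 134 CPM in haploid embryonic stem cells, above both wild-type EpiSC libraries (15.1 and 40.6 CPM). Lefty1 and Dnmt3b were lower in haploid and in diploid embryonic stem cells than in all 4 libraries. Pou5f1, the pluripotency factor also called Oct4, stood between 471 and 700 CPM in the 4 libraries and at 0 in MEF.

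Genes were tested with the quasi-likelihood F test of edgeR, and p-values were adjusted by the Benjamini-Hochberg method with a threshold of 0.05. Of 18074 genes tested, 0 passed (0%), and the smallest adjusted p was 0.975. At an unadjusted p under 0.05 there were 637 genes, 419 with higher and 218 with lower haploid means, fewer than the 904 that this threshold gives by chance over 18074 tests. Without its low-count filter edgeR called 136 of 30688 genes. DESeq2, run on those 30688 genes with its own filtering, called 22, 19 with higher and 3 with lower haploid means, and limma on FPKM called 0. With 2 libraries against 2, an exact permutation test cannot go below p = 0.333. In counts simulated for this comparison, edgeR recovered 62% of 100 genes changed 4-fold and 98% of 100 changed 16-fold, among 17386 genes. The changed genes were picked only from genes with a mean of at least 5 CPM, so genes of lower level are not covered. The simulated counts were drawn gene by gene, without differences of line, sex or chromosome that many genes share. The shares recovered therefore do not state how many changes of that size the real libraries could hide. Every gene named below had an edgeR adjusted p of 0.975 or above, and the words higher and lower describe these libraries.

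Both haploid libraries stood above both wild-type libraries for 2786 of 17404 autosomal genes tested (16.0%), and below both for 2876 (16.5%). In a further 2379 genes 1 haploid library lay above and 1 below the wild-type range. The rule admits genes whose values barely separate. Dhcr7, of cholesterol synthesis, was just inside at 127 and 116.1 CPM in the haploid libraries, with 116.0 CPM in the male library. Trib3, a stress response gene, was just outside at 77.1 and 77.8 CPM against 77.5 CPM in the male library. A gap was therefore measured as the lowest value of the higher side over the highest value of the lower side. The gap reached 2-fold for 137 genes higher in the haploid libraries (0.787%) and for 78 lower (0.448%).

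Lefty2 was among the 15 genes with the widest gap on the higher side. Lefty1 and Lefty2 lie beside each other on chromosome 1 and arose by duplication, so reads from one could be counted for the other. Their coding sequences from GENCODE vM21 are 1107 bases each and are identical at 91.9% of positions. Of all windows of 50 bases in the Lefty1 coding sequence, 26.6% also occurred in Lefty2, and of windows of 100 bases 7.24%. The longest identical run was 140 bases, and 0 of 958 windows of 150 bases were shared. A part of the reads could thus have come from either gene, while most of the coding sequence holds differences that separate them.

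Lefty2 reached 483 CPM (haEpi1) and 305 CPM (haEpi5), against 15.6 CPM in the female and 42.0 CPM in the male wild-type library. With 68.3 CPM in the diploid p53-KO library, both haploid values were above all 3 diploid values, and the gap to the nearest wild-type library was 7.24-fold. The mean was 394 ± 126 CPM in the haploid and 28.8 ± 18.6 CPM in the wild-type libraries (SD, n = 2 each), a log2 fold change of 3.77 ± 0.53 (SE, edgeR adjusted p = 0.975). DESeq2 gave Lefty2 an adjusted p of 1.77e-10, the smallest of its calls.

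Lefty1 reached 558 CPM (haEpi1) and 965 CPM (haEpi5), against 283 CPM in the female and 171 CPM in the male library, and at 355 CPM in the diploid p53-KO library. Its haploid values again exceeded all 3 diploid values, with a log2 fold change against wild type of 1.75 ± 0.39. The order of the lines differed between the genes, with Lefty2 higher in haEpi1 and Lefty1 higher in haEpi5.

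Other Nodal pathway genes were mixed in direction. Nodal itself, the ligand, did not separate the sides, with 54.4 and 57.3 CPM in haEpi1 and haEpi5 and 19.1 and 63.7 CPM in the female and male libraries. Tdgf1, the co-receptor also called Cripto, was at 401 and 216 CPM in the haploid libraries and at 150 and 140 CPM in the wild-type libraries, with 285 CPM in the diploid p53-KO library. Gdf3, a ligand of the same family, was at 34.4 CPM in haEpi1 but 3.47 CPM in haEpi5, against 0.850 and 1.93 CPM. Its difference rested largely on haEpi1.

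Of the activin receptors listed, 2 stood lower in both haploid libraries. Acvr2b, a type II receptor, was at 42.8 and 16.5 CPM in haEpi1 and haEpi5 and at 52.8 and 68.7 CPM in the wild-type libraries, and Acvr1b, a type I receptor, was at 61.3 and 47.6 CPM against 78.3 and 70.7 CPM. Of the 16 Nodal pathway genes listed, all of which were tested, 6 (37.5%) lay above and 3 (18.8%) below the wild-type range, against 16.0% and 16.5% of all autosomal genes, and the median log2 fold change was 0.23 against -0.02 over all autosomal genes. edgeR called 0 of them.

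**Figure D1:**
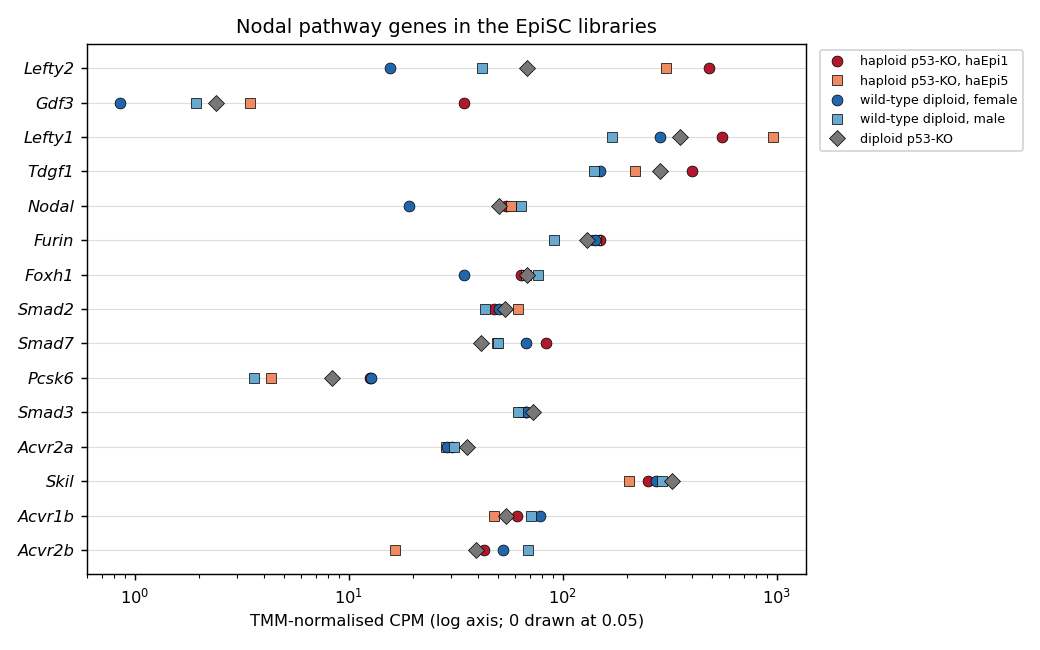
TMM-normalised CPM (log axis) of 15 of the 16 Nodal pathway genes, with 1 point for each of the 5 EpiSC libraries. Lefty2 shows the widest separation, with haploid libraries at 483 and 305 CPM and wild-type libraries at 15.6 and 42.0 CPM, whereas the Nodal points overlap.

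Dnmt3b, the de novo DNA methyltransferase that marks the post-implantation epiblast, was lower in the haploid libraries, at 540 and 424 CPM against 878 CPM in the female and 1187 CPM in the male library. The diploid p53-KO library held 1031 CPM, within the wild-type range. The log2 fold change was -1.10 ± 0.29 (edgeR adjusted p = 0.975). Otx2, a transcription factor of the early anterior epiblast, was at 57.9 and 33.1 CPM against 102 and 82.3 CPM. Zic2, a zinc finger transcription factor, was at 172 and 174 CPM against 270 and 277 CPM, with 199 CPM in the diploid p53-KO library.

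Of 17 post-implantation epiblast genes tested, 6 (35.3%) lay below and 0 above the wild-type range, against 16.5% and 16.0% of all autosomal genes, with a median log2 fold change of -0.55. Their summed level was 2429 and 2261 CPM in haEpi1 and haEpi5 and 3467 and 3478 CPM in the wild-type libraries, on the scale of all 10 libraries. Of 15 general pluripotency genes, 3 (20%) lay below and 1 (6.67%) above, near or under the shares over all autosomal genes. Pou5f1 was at 471 and 530 CPM against 558 and 700 CPM. Among 14 naive pluripotency genes 1 (7.14%) lay above and 0 below: Klf4, a Krüppel-like transcription factor, was at 10.3 and 12.1 CPM against 6.01 and 2.57 CPM. Its MEF level, 38.5 CPM, exceeded all 4 libraries, and of the 9 naive genes whose MEF level did not, 0 lay above. Of 13 genes of the DNA methylation machinery, 5 (38.5%) lay below, Dnmt3b included, and 1 (7.69%) above.

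Of 17 primary response genes of FGF and ERK signalling, 6 (35.3%) lay above and 0 below the wild-type range, against 16.0% and 16.5% of all autosomal genes. Phlda1 was at 31.9 and 38.7 CPM in haEpi1 and haEpi5 against 20.7 and 20.3 CPM, and Egr1, an immediate early transcription factor, was at 73.0 and 89.5 CPM against 50.7 and 45.1 CPM. Ier3, a stress-inducible survival gene, was at 149 and 82.3 CPM against 60.6 and 37.2 CPM. Without the male library 6 genes lay above and 6 below the remaining wild-type value. Over all autosomal genes 33% lay above and 33.3% below in that setting, so these counts did not set the list apart. Wnt targets showed 1 gene above and 1 below among 15 (6.67% each). Primitive streak and mesendoderm genes showed 1 above (6.25%) and 2 below (12.5%) among 16. In the primitive streak list the female library stood apart, with a summed level of 175.5 CPM on the scale of all 10 libraries. haEpi1, haEpi5 and the male library held 48.3, 25.6 and 23.0 CPM. For Wnt targets the sum was 464.5 CPM in the female and 160.8 CPM in the male library. haEpi1 and haEpi5 lay between them, at 412.6 and 276.8 CPM. The lists share T, Cdx1 and Sp5. Without the male library 12 Wnt targets and 13 primitive streak genes lay below the female level, against 33.3% of all autosomal genes. Without the female library 9 of either list lay above the male level, against 34.9% of all autosomal genes.

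**Figure D2:**
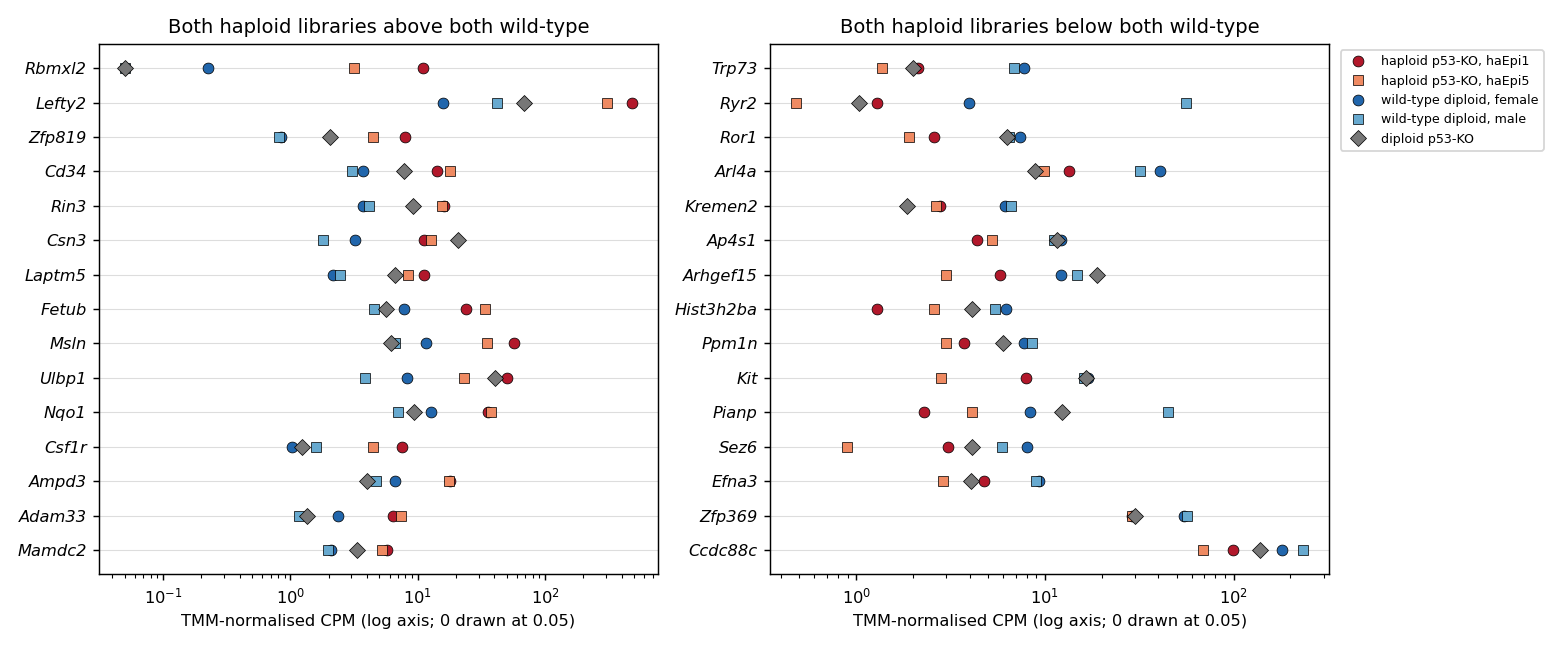
TMM-normalised CPM (log axis, with 0 drawn at 0.05) of the 15 autosomal protein-coding genes with the widest gap in each direction, 1 point per EpiSC library. Lefty2 stands among the genes higher in both haploid libraries, and Trp73 heads those lower, at 2.12 and 1.38 CPM against 7.76 and 6.90 CPM.

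Beside Lefty2, the genes with the widest gaps on the higher side belonged to unlike classes. Rbmxl2, a retrogene of the germ cell RNA-binding protein family, had the widest gap, at 11.0 and 3.17 CPM in haEpi1 and haEpi5 against 0.227 CPM (4 counts) in the female and 0 counts in the male library. A count of 0 allowed up to 0.170 CPM there, from a floor of 3 counts, which covers counting error only. In the diploid p53-KO library the count was also 0, so among EpiSC the transcript was counted in both haploid libraries and in 1 of 3 diploid libraries. It is not particular to haploid cells: on the scale of all 10 libraries, Rbmxl2 was at 127 CPM in wild-type diploid embryonic stem cells and 95.4 CPM in haploid ones. Zfp819, a zinc finger gene, was at 7.97 and 4.49 CPM against 0.850 and 0.818 CPM.

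Msln, which encodes the cell surface protein mesothelin, was at 57.4 and 34.9 CPM in the haploid libraries against 11.6 and 6.61 CPM, with 6.18 CPM in the diploid p53-KO library. Nqo1, a quinone reductase induced by the oxidative stress factor Nrf2, was at 35.3 and 37.9 CPM against 12.8 and 6.96 CPM, with 9.28 CPM in the diploid p53-KO library. Fetub, a secreted inhibitor of the egg coat protease ovastacin, was at 24.0 and 34.0 CPM against 7.82 and 4.50 CPM. For these 3 genes the diploid p53-KO library lay beside or below the wild-type libraries.

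Ulbp1, a ligand of the natural killer cell receptor NKG2D, was at 49.8 and 22.9 CPM against 8.22 and 3.86 CPM. The diploid p53-KO library, at 40.7 CPM, lay between the haploid values. Csn3, the milk protein kappa casein, was at 11.2 and 12.6 CPM against 3.23 and 1.81 CPM, and the diploid p53-KO library was higher still at 20.7 CPM. In these 2 genes all 3 libraries with the p53-KO label lay above both wild-type libraries. Of the other genes with the widest gaps, the same held for Lefty2, Zfp819, Cd34, Rin3, Laptm5 and Mamdc2. It did not hold for Rbmxl2, Csf1r, Ampd3, Adam33, Msln, Nqo1 and Fetub.

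Some genes of this group had a MEF level above all 4 libraries. Cd34, a sialomucin of progenitor and stromal cells, was at 14.3 and 17.8 CPM against 3.68 and 3.04 CPM, with 39.1 CPM in MEF. Laptm5 and Csf1r, which are known from blood cells, were at 11.2 and 8.32 CPM and at 7.5 and 4.43 CPM in the haploid libraries, with 54.6 and 49.5 CPM in MEF. Rin3, a guanine nucleotide exchange factor of endocytosis, was at 16.1 and 15.4 CPM against 3.74 and 4.15 CPM, with 24.9 CPM in MEF. On the scale of all 10 libraries, Laptm5 was above MEF in embryonic stem cells, at 163 CPM in wild-type diploid and 63.4 CPM in haploid ones. Rin3 was at 49.7 CPM in haploid but 1.68 CPM in diploid ones. Cd34 and Csf1r were below MEF in both. Ampd3, an AMP deaminase, was at 17.9 and 17.7 CPM against 6.63 and 4.68 CPM, and its MEF level of 11.8 CPM lay below both haploid values.

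The metalloprotease gene Adam33 was at 6.42 and 7.36 CPM against 2.38 and 1.17 CPM, and Mamdc2 at 5.74 and 5.21 CPM against 2.10 and 1.99 CPM. MEF exceeded all 4 libraries for 6 of the 15 genes and was below all 4 for 5. Of 111 named protein-coding genes with a gap of at least 2-fold on the higher side, the MEF level exceeded all 4 libraries for 57.7%, against 35.6% of 13638 such genes tested and 18.5% of 27 on the lower side.

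On the lower side, Trp73, which encodes the p53 family member p73, had the widest gap. The haploid libraries held 2.12 and 1.38 CPM, against 7.76 and 6.90 CPM in the female and male libraries, a log2 fold change of -2.06 ± 0.56 (edgeR adjusted p = 0.975). The diploid p53-KO library held 2.0 CPM, so all 3 libraries with the p53-KO label lay below both wild-type libraries. Ryr2, a calcium release channel, was at 1.29 and 0.479 CPM against 3.97 CPM in the female and 56.2 CPM in the male library, with 1.03 CPM in the diploid p53-KO library. Most of the Ryr2 difference was thus the male library.

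Kit, the receptor of stem cell factor, was at 7.97 and 2.81 CPM against 17.0 and 16.1 CPM, and the diploid p53-KO library, at 16.6 CPM, lay with the wild type. Arhgef15, a guanine nucleotide exchange factor, was at 5.79 and 2.99 CPM against 12.1 and 14.7 CPM. The diploid p53-KO library was again on the wild-type side, at 18.8 CPM. Ror1, a receptor of Wnt5a, was at 2.59 and 1.92 CPM against 7.37 and 6.49 CPM, with 6.31 CPM in the diploid p53-KO library. Pianp was at 2.28 and 4.13 CPM against 8.33 CPM in the female and 44.8 CPM in the male library.

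Arl4a, Ap4s1 and Ccdc88c, also in this group, lie on chromosome 12. Arl4a, a small GTPase, was at 13.3 and 9.93 CPM against 40.5 and 31.7 CPM, with 8.83 CPM in the diploid p53-KO library. Ccdc88c, a regulator of Wnt signalling, was at 99.6 and 69.1 CPM against 180 and 234 CPM. Ap4s1, a subunit of an adaptor complex of vesicle transport, was at 4.35 and 5.27 CPM against 12.1 and 11.2 CPM.

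Chromosome 12 stood apart as a whole. The median gene on it was 0.36 and 0.35 below the wild-type mean on the log2 scale in haEpi1 and haEpi5, 0.38 above in the female library and 0.38 below in the male library. The female library thus exceeded the male by 0.75 (1.68-fold), and the difference held along the chromosome: in all 12 bins of 10 Mb the female median lay 0.60 to 0.83 above the haploid mean. The male median lay between -0.06 and 0.17 from it. The medians of the other autosomes lay between -0.09 and 0.09 in all 4 libraries.

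Of 704 chromosome 12 genes tested, 218 (31%) lay below the wild-type range and 35 (4.97%) above. The male and the haploid medians of chromosome 12 were alike, so the wild-type library that stood apart there was the female one. Leaving chromosome 12 out gave 2751 genes above and 2658 below the range among 16700. Whether the female culture holds extra copies of the chromosome was not tested.

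**Figure D3:**
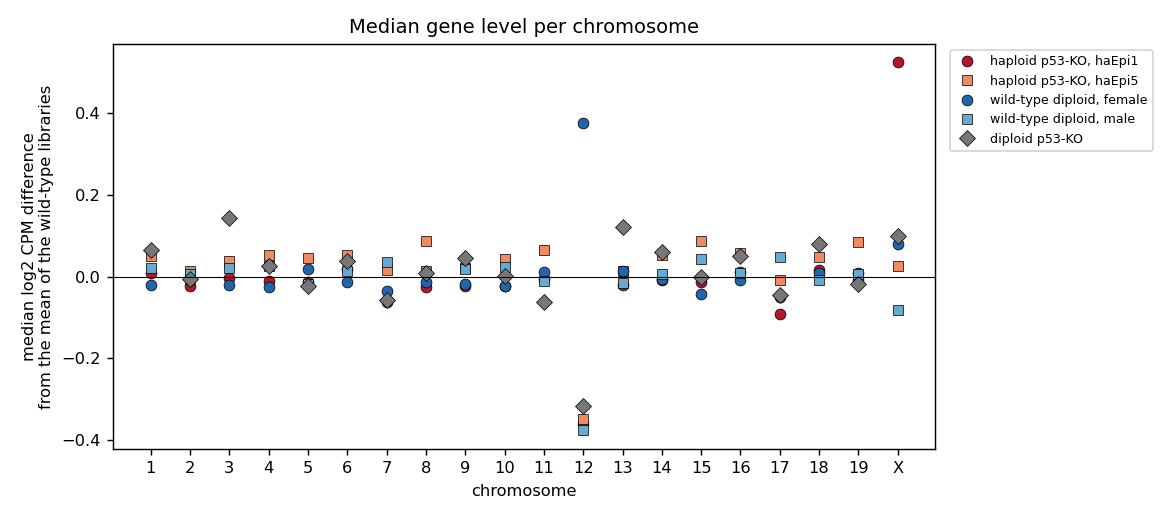
Median over genes of the log2 CPM difference from the mean of both wild-type libraries, for each chromosome, with 1 point for each EpiSC library. Chromosome 12 separates the female wild-type library (0.38) from the other 4 (-0.38 to -0.32), and the X chromosome separates haEpi1 (0.52) from the rest.

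The X chromosome differed between the haploid lines. Its median gene was 0.52 above the wild-type mean in haEpi1 and 0.03 above in haEpi5, with 0.08 in the female and -0.08 in the male library. X-linked genes took 4.84% of the counts of haEpi1 and 3.30% of those of haEpi5. Of 629 X-linked genes tested, 169 (26.9%) lay above and 24 (3.82%) below the wild-type range. Klhl4, of the kelch-like family, was at 91.4 and 56.7 CPM in haEpi1 and haEpi5 against 5.72 and 12.6 CPM, and at 63.6 CPM in the diploid p53-KO library. Its log2 fold change was 3.01 ± 0.47, with an edgeR adjusted p of 0.975 and a DESeq2 adjusted p of 1.77e-06. Xlr3a, of an imprinted X-linked family with near-identical copies that make its counts uncertain, was at 23.2 CPM in haEpi1 but 2.75 CPM in haEpi5 against 0.510 and 0.292 CPM.

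Of 24 mitotic genes 11 (45.8%) lay below and 0 above the wild-type range, against 16.5% and 16.0% of all autosomal genes. The median log2 fold change was -0.24, and the widest gap in the list was 1.25-fold, for Kif11. Cenpf, a kinetochore protein, was at 141 and 77.8 CPM in haEpi1 and haEpi5 against 176 and 275 CPM. Kif11, the motor that separates spindle poles, was at 136 and 129 CPM against 171 and 176 CPM, with 193 CPM in the diploid p53-KO library. The summed level of the list was 3702 and 3573 CPM in the haploid, 3979 and 5225 CPM in the wild-type and 2183 CPM in the MEF library.

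Of 22 genes of homologous recombination and the damage checkpoint, 10 (45.5%) lay below and 0 above, against the same shares over all genes. The median was -0.34, and the widest gap in the list was 1.31-fold, for Atm. Without haEpi1, 3 genes of this list and 3 of the mitotic list lay above the wild-type range, with 13 and 12 below. Over all autosomal genes 34.5% lay above and 33.4% below in that setting. Atm, the kinase that senses double-strand breaks, was at 65.6 and 32.1 CPM against 86.2 and 87.1 CPM. Mdc1, which gathers repair factors at breaks, was at 124 and 96.4 CPM against 149 and 252 CPM. The diploid p53-KO library, at 87.7 CPM of Atm and 163 CPM of Mdc1, lay on the wild-type side for both.

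The p53 targets did not stand to one side. Of 32 tested, 2 lay above and 4 below the wild-type range, close to or under the shares over all autosomal genes. Zmat3, an RNA-binding protein, was at 71.7 and 58.2 CPM against 73.1 CPM in the female and 190 CPM in the male library. Plk3, a stress kinase, was at 48.9 and 42.0 CPM against 24.1 and 26.9 CPM. Xpc, of nucleotide excision repair, was at 21.8 and 20.9 CPM against 25.6 and 26.1 CPM.

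The wild-type libraries themselves differed in this list, with a summed level of 1396 CPM in the female and 3595 CPM in the male library, and the haploid libraries lay between them at 1576 and 1945 CPM. Without the female library 27 of the 32 targets lay below the remaining wild-type value and 2 above, against 36.7% and 34.9% of all autosomal genes. Without the male library 21 lay above and 5 below, against 33% and 33.3%. The direction of the list therefore followed the wild-type library chosen. Of 15 genes of the BCL2 family, which controls apoptosis, 1 (6.67%) lay above and 3 (20%) below, against 16.0% and 16.5% of all autosomal genes. Hs3st3b1, the heparan sulfate sulfotransferase in the title of the series, was at 3.73 and 1.20 CPM in the haploid libraries and at 9.58 and 0.351 CPM in the female and male libraries. Of 18 heparan sulfate enzymes 5 (27.8%) lay above and 3 (16.7%) below. Of the 5 whose MEF level did not exceed all 4 libraries 0 lay above and 1 below. Over all autosomal genes so restricted the shares were 11.6% and 19.6%.

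Interferon-stimulated genes formed the list with the largest share on the higher side. Of 26 tested, 17 (65.4%) lay above and 0 below the wild-type range, against 16.0% and 16.5% of all autosomal genes. The median log2 fold change was 1.35. The level came mainly from haEpi5: Ifit3, an antiviral protein, was at 15.7 CPM in haEpi1 but 93.3 CPM in haEpi5 against 10.5 and 3.92 CPM. Rsad2, the antiviral enzyme viperin, was at 16.7 and 36.2 CPM against 9.98 and 1.64 CPM, and Oas1a, a sensor of double-stranded RNA, at 14.5 and 39.9 CPM against 9.35 and 9.0 CPM.

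The gap was under 2-fold for all 17. The haploid libraries summed to 1094 CPM (haEpi1) and 2306 CPM (haEpi5), with 988 CPM in the female and 884 CPM in the male library. haEpi1 thus lay close to the female library. The diploid p53-KO library was lowest, at 334 CPM, and MEF highest, at 2583 CPM. Among the 13 members whose MEF level did not exceed all 4 libraries, 9 lay above the wild-type range, against 11.6% of autosomal genes so restricted.

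**Figure D4:**
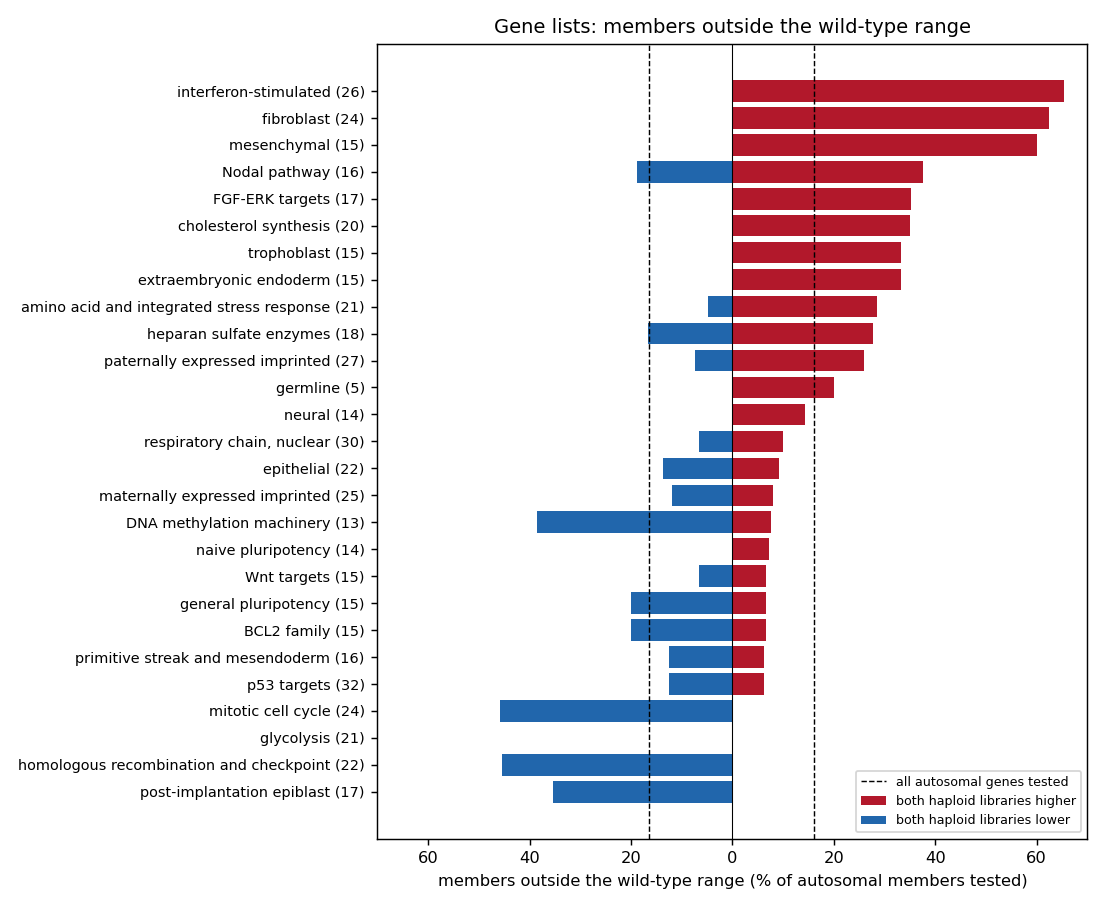
Share of the tested autosomal members of each gene list that lay above (right) or below (left) the wild-type range in both haploid libraries, with the number of members in brackets and the share over all autosomal genes as dashed lines (16.0% and 16.5%). Interferon-stimulated, fibroblast and mesenchymal genes reach 60% or more on the higher side, and mitotic and homologous recombination genes exceed 45% on the lower side.

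Of 24 fibroblast genes tested, 15 (62.5%) lay above and 0 below the wild-type range, against 16.0% and 16.5% of all autosomal genes. The median log2 fold change was 1.12. The gap was under 2-fold for all 15, and edgeR called 0. Dcn, the matrix proteoglycan decorin, was at 70.6 and 122 CPM in haEpi1 and haEpi5 against 49.9 and 17.9 CPM, and Lum, or lumican, at 13.2 and 24.5 CPM against 8.84 and 1.52 CPM. Twist2, a transcription factor of mesenchyme, was at 6.62 and 18.3 CPM against 4.82 and 1.11 CPM. Thy1, a fibroblast surface protein, was at 59.8 and 67.7 CPM against 43.8 and 13.4 CPM.

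The summed level of the fibroblast list was 4591 and 4493 CPM in the haploid libraries, 2976 and 2238 CPM in the wild-type libraries, 3159 CPM in the diploid p53-KO library and 91970 CPM in MEF. None of the 24 genes was at 0 in any of the 4 libraries. In bulk RNA, more cells of a type and more RNA per cell cannot be told apart, and the part of fibroblasts in these levels was not tested. Of 15 mesenchymal genes 9 (60%) lay above and 0 below, with a median of 1.17. Over all autosomal genes 16.0% lay above and 16.5% below. This list shares Fn1, S100a4 and Twist2 with the fibroblast list. Only 1 of the 15 had a MEF level that did not exceed all 4 libraries, and it did not lie above the range. Tgfbi, a matrix protein, was at 36.4 and 49.6 CPM against 16.2 and 3.10 CPM, and at 60.6 CPM in the diploid p53-KO library. Zeb1, a repressor of epithelial genes, was at 25.5 and 27.5 CPM against 13.4 and 5.38 CPM. Of 22 epithelial genes 2 (9.09%) lay above and 3 (13.6%) below, both under the shares over all autosomal genes. The haploid lines differed here, with a summed level of 3230 CPM in haEpi1 but 5347 CPM in haEpi5. Without haEpi5 2 genes lay above and 17 below, against 28% and 30.8% of all autosomal genes. Without haEpi1 10 lay above and 3 below, against 34.5% and 33.4%.

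The count over the genome was taken again without the genes whose MEF level exceeded all 4 libraries, most of which are in no fibroblast list. Among the 11921 other autosomal genes 1378 (11.6%) lay above and 2341 (19.6%) below the wild-type range, against 16.0% and 16.5% over all genes tested. The MEF level was compared with the same 4 libraries, so this restriction is not independent of their values, and what sets the change in the shares was not tested. Under it the Nodal pathway had 5 of 11 members above and 3 below, and the mitotic list 11 of 24 below.

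**Figure D5:**
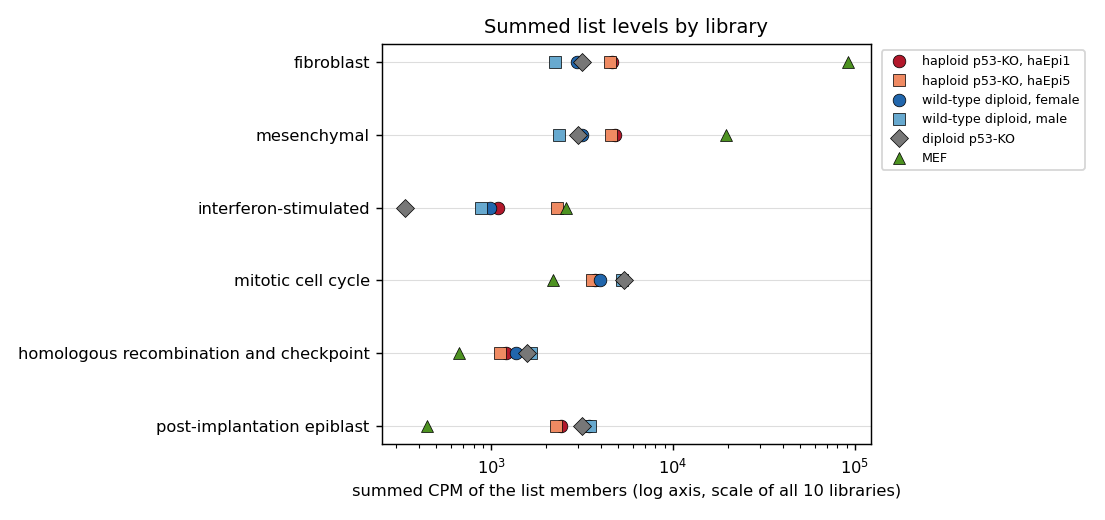
Summed CPM (log axis, scale of all 10 libraries) of 6 gene lists in each EpiSC library and in MEF. The fibroblast sum is 4591 and 4493 CPM in the haploid, 2976 and 2238 CPM in the wild-type and 91970 CPM in the MEF library, and for interferon-stimulated genes haEpi5 (2306 CPM) stands apart from haEpi1 (1094 CPM).

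Imprinted genes, which are expressed from the allele of 1 parent, showed no common order. Of 27 paternally expressed genes 7 (25.9%) lay above and 2 (7.41%) below, against 16.0% and 16.5% of all autosomal genes. Of 25 maternally expressed genes 2 (8%) lay above and 3 (12%) below. Without the male library 9 paternally expressed genes lay above and 11 below, against 33% and 33.3% of all autosomal genes. Slc38a4, a paternally expressed amino acid transporter, was at 314 and 293 CPM in haEpi1 and haEpi5 against 185 and 187 CPM, with 230 CPM in the diploid p53-KO library. Impact, another paternally expressed gene and a regulator of translation, was at 303 and 356 CPM in the haploid lines. It was at 227 CPM in the female and 89.7 CPM in the male library. Of the maternally expressed genes, Osbpl5, a lipid transfer protein, was at 30.9 and 36.1 CPM against 21.0 and 15.5 CPM. Ppp1r9a, or neurabin, was at 48.4 and 28.5 CPM against 58.5 and 83.1 CPM. Paternally expressed genes were thus counted in both haploid lines; the labels do not name the parental origin of the haploid genome.

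The remaining lists held few genes with wide separations. Cholesterol synthesis genes lay above the range for 7 of 20 (35%) and below for 0, with a median log2 fold change of 0.24. Over all autosomal genes 16.0% lay above and 16.5% below. Of 21 genes of the amino acid and integrated stress response, 6 (28.6%) lay above and 1 (4.76%) below. Without the female library 7 lay above and 7 below, against 34.9% and 36.7% of all autosomal genes. Without the male library 18 lay above and 1 below, against 33% and 33.3%. Extraembryonic endoderm markers lay above for 5 of 15 (33.3%) and below for 0, and so did trophoblast markers, for 5 of 15 (33.3%) and 0. Among the members whose MEF level did not exceed all 4 libraries, 0 of 7 endoderm and 5 of 14 trophoblast markers lay above. Over all autosomal genes so restricted the share above was 11.6%. Neural markers lay above for 2 of 14 (14.3%) and germline genes for 1 of 5 (20%), with 0 below in either list. Of 30 nuclear genes of the respiratory chain 3 (10%) lay above and 2 (6.67%) below, and of 21 glycolysis genes 0 lay outside the range. The summed level of the glycolysis list differed between the haploid lines, at 15070 CPM in haEpi1 but 8721 CPM in haEpi5, with 11200 CPM in the female and 15440 CPM in the male library. Without haEpi5 10 glycolysis genes lay above and 1 below the wild-type range, against 28% and 30.8% of all autosomal genes. Without haEpi1 1 lay above and 16 below, against 34.5% and 33.4%.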

How the data were processed

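RNA from 10 mouse libraries had been sequenced after poly-A selection, per the labels' protocols. Per the submitters' processing notes, HISAT2 2.0.5 was used with the mm10 build, and featureCounts 1.5.0-p3 gave the deposited counts, whole numbers for each gene. The deposited FPKM values, scaled to gene length and library size by the authors, were used as an alternative. No source used here gives the strand setting of the counting, so reads of overlapping genes on opposite strands cannot be separated.

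Counts of the 5 EpiSC libraries were fitted with edgeR 4.0.16 in R 4.3.3 (filterByExpr, TMM, quasi-likelihood F test) with 1 mean per group, and the contrast was haploid p53-KO (n = 2) minus wild type (n = 2). Here n counts libraries; the design text of the series speaks of 3 replicates, whereas the labels give 1 library for each haploid line and for each wild-type sex. Gaps used log2 CPM with a prior count of 2, so that the gap of a gene is smaller than the plain ratio of its CPM. The fit was tested on data simulated for this comparison, in which genes varied independently of each other. It made 16 false calls among 17386 genes. Alternatives were DESeq2 1.42.0, limma 3.58.1 on log2(FPKM + 1) or log2(FPKM + 0.1), other scalings, filters and library sets. The 2 restrictions to autosomes other than 12 and by MEF level, and the leave-one-out counts of genes outside the range, were chosen after seeing the data.

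The members and the 27 gene lists (569 entries, 568 matched) were chosen with earlier results of these data known. Named genes followed a rule: the p53, sex and marker genes; per direction, the 15 autosomal protein-coding genes with the widest gap, given a higher side that averaged 5 CPM or more, without predicted genes and clones; and up to 4 members of each list with the widest gap. The text gives examples. Nodal, the receptors, Pou5f1 in MEF, Dhcr7, Trib3, Klhl4 and Xlr3a were named after their values were seen. The Lefty coding sequences were taken from GENCODE vM21. The sequences, and 1 Nodal pathway gene, are not reported here.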

Additional observations from a re-analysis of the deposited data

How the results depend on the processing

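The count of 0 genes called by edgeR stayed 0 with upper-quartile factors, with TMM over autosomal genes, with the 4 libraries alone, with all 10 libraries and with limma on FPKM at either pseudocount. It was 22 with DESeq2 and 136 without the low-count filter (85 higher, 51 lower). Leaving out 1 library gave 0 to 100 calls: 0 without either haploid library, 3 without the male library (T, Nudt11 and Lefty2) and 100 without the female library. A lone library was then assumed to vary like the other groups. Of the genes outside the wild-type range, 4365 lay below without the low-count filter, where 29519 genes were counted. A gap of at least 2-fold left 137 above and 78 below, a mean of 5 CPM or more 1844 and 1786, and the restriction by MEF level 1378 above. Leaving out 1 library gave 4876 to 6067 above and 5367 to 6387 below, since fewer values have to separate. Of 852 gene values recomputed over 71 genes, 787 kept their direction and their side of the threshold, 54 were newly called and 11 changed sign. Over the 4 fits that each left out 1 library, the log2 fold change ran from -1.81 to 0.60 for Trp53, -0.88 to 0.30 for Cdkn1a, -0.27 to 0.39 for Mdm2, -3.79 to 0.23 for Ddx3y, -3.79 to 0.61 for Eif2s3y, -4.37 to 1.31 for Kdm5d, -4.41 to 1.05 for Uty, -2.04 to 2.80 for Hs3st3b1 and -0.18 to 1.55 for Nodal. The sign turned without the male library for Trp53, Cdkn1a and the Y-linked genes, without the female library for Hs3st3b1 and Nodal, and for Mdm2 without haEpi5 (-0.15), without the female library and with upper-quartile factors (-0.02). Apart from the number of genes or libraries used, the cause of these changes was not tested. No paired analysis was possible because the labels give the wild-type libraries no replicate number and both haploid libraries the same one. With 2 libraries a side, 1 library decides many values, and genes near the floor of 3 counts (0.151 to 0.173 CPM in the 4 libraries) are limited by depth.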
